A study of Mus musculus with 6 samples.

Results

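The expression of 10 immediate early genes, *Fos*, *Fosb*, *Jun*, *Junb*, *Egr1*, *Ier2*, *Npas4*, *Nr4a1*, *Nr4a2* and *Dusp1*, was examined in 6 clonal lines of MIN6, a line from a mouse insulinoma that serves as a β cell model. The genes were taken from a list of early genes induced by calcium and cAMP. The rule uses no measured value, but the list was chosen with earlier results of these data known. Their Ensembl identifiers were found through GENCODE M21. All 10 were present among the 53808 mouse genes in the data, and all 10 were among the 17823 tested, those whose mean over the clones reached 0.5 TPM, a share of transcripts scaled for gene length. The parental cells of all 6 lines express Cas9, a nuclease directed to DNA by a guide RNA. They were infected with lentivirus carrying a guide RNA against *Snd1*, selected with puromycin and expanded from single cells. In 3 control clones the guide targeted intron 2 of *Snd1*, and in 3 *Snd1* KO clones it targeted exon 2. The study lists 2 guides for exon 2. Its alignment sets *Snd1* KO 1 and 2 under 1 of these guides and *Snd1* KO 3 under the other. Each clone gave 1 library of total RNA, so a clone and its library cannot be told apart, and all p-values below measure the spread between clones. The glucose level, the stimulation and the time since the last medium change at harvest are not given in the sources used here.

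Immediate early genes are transcribed within minutes of a stimulus, without new protein synthesis, and their short-lived transcripts fall again soon after. In the β cell, glucose closes potassium channels, the membrane depolarizes and calcium enters, while incretin hormones such as GLP-1 raise cAMP. Both signals lead through kinases to factors such as CREB and SRF that are already present at the promoters of these genes. The products are mostly transcription factors, which form the next step of the response, together with phosphatases that end the kinase signal.

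Depth, estimated from whole-read steps in the TPM values, was between 25800474 and 32985137 reads on genes per clone. *Snd1* itself was at 113, 119 and 112 TPM in the controls, in the order of their clone numbers here and below, and at 14.7, 57.1 and 19.9 TPM in the *Snd1* KO clones, a mean of 26.7% of control, with a log2 fold change of −2.11 (SE 0.45, limma adjusted p = 0.511). Some clones did not group with their label. Profiles were correlated across the genes whose mean reached 5 TPM, which are not independent replicates. Control 3 correlated more closely with *Snd1* KO 3 (0.955) and *Snd1* KO 2 (0.949) than with control 1 (0.943) and control 2 (0.936). *Snd1* KO 1 was not closer than 0.938 to any clone. Values without control 3 and *Snd1* KO 1, and with the clones weighted, are given below for genes and lists whose calls they alter, for some as counts alone. The summed level of 10 β cell markers, mostly *Iapp* and *Ins2*, ran from 44081 to 77246 TPM among controls and from 48040 to 82144 TPM among *Snd1* KO clones. Of the 10, 5 had a log2 fold change above 0 and 5 below. The markers higher in every *Snd1* KO clone were 2, *Neurod1* and *Ucn3*, against 9.69% of all genes. *Ucn3* was 41.6 TPM in *Snd1* KO 1 and at most 0.680 TPM in every other clone. Of 8 markers of other islet cells, the δ cell factor *Hhex* was at 0 in every clone, and the list summed to between 175 and 314 TPM in controls and 56.9 to 1103 TPM in *Snd1* KO clones, the highest in *Snd1* KO 1. Of 12 markers of fibroblast, endothelial, immune and exocrine cells, the exocrine enzymes *Cpa1*, *Amy2a3* and *Prss1* were at 0 in every clone, and the list summed to 9.19, 6.56 and 2.20 TPM in controls 1, 2 and 3 and to 3.26 to 3.73 TPM in *Snd1* KO clones. Controls 1 and 2, the highest, are also among the 3 highest clones for *Fos* and *Nr4a2*. The part of the clone differences in the results below was not tested.

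Calcium and cAMP signals are known to act on many early genes through short promoter elements. RefSeq sequence (GRCm38.p6) of the 250 bases before an annotated RefSeq start was found for 8 of the 10 genes, the exceptions being *Egr1* and *Ier2*. For *Nr4a1*, *Dusp1*, *Npas4* and *Fosb* this start lies inside the GENCODE M21 span of the gene given below, which begins farther upstream. It was searched on both strands for the cAMP response element (CRE, TGACGTCA), bound by CREB, for the CRE core (TGACG or its reverse complement CGTCA, which lies within every full CRE), for the CArG box, bound by SRF, for the AP-1 site TGANTCA, bound by FOS and JUN dimers, and for the TATA motif TATAAA. The 4 windows below are shown because they include the promoters with the most core sites, that of *Fos*, and that of *Jun*, which has none. Each is written 5′ to 3′ on the strand of the gene, with core sites in capitals.
Fos, chr12:85473640-85473889, plus strand: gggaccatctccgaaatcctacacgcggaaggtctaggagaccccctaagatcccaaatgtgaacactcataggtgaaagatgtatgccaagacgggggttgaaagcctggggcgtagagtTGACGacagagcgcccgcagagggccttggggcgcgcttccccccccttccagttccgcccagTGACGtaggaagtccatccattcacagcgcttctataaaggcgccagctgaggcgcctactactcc
Nr4a1, chr15:101266596-101266845, plus strand: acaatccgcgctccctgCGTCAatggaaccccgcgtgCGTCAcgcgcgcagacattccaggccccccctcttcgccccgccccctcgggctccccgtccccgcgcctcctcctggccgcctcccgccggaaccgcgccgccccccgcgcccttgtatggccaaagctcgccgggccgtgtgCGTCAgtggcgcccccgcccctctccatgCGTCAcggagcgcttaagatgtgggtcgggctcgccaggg
Nr4a2, chr2:57124004-57124253, minus strand: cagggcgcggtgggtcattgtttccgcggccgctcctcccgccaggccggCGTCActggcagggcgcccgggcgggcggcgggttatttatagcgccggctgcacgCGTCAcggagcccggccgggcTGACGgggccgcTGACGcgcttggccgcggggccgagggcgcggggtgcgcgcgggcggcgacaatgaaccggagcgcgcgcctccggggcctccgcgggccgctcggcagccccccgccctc
Jun, chr4:95052223-95052472, minus strand: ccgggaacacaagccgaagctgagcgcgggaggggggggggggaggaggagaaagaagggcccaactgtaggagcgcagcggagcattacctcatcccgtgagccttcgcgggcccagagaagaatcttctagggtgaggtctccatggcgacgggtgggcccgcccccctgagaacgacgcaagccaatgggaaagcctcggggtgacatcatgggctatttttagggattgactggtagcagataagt
A core site was present in 7 of the 8 windows, against 17.8% of 32851 promoters of the same length and 17 of 27 other primary response genes that have an entry. *Nr4a1* and *Nr4a2* each held 4, and 0.688% of all promoters held 3 or more. In *Fos* the site nearest the start lay 66 to 62 bases before it, and a TATA motif followed 33 to 28 bases before the start. The TATA motif was found in 2 of the 8 windows, *Fos* and *Nr4a2*, against 12.4% of all promoters and 5 of the 27 other primary response genes. *Npas4* held 2 core sites, *Fosb* and *Junb* 1 each, and *Dusp1* 3, of which 2 overlap as the only full CRE among the 8, 143 to 136 bases before its start. A full CRE was present in 1.55% of all promoters. The CArG box was found in 0 of the 8 windows, against 1.47% of all promoters and 4 of the 27 other primary response genes. The AP-1 site was also found in 0 of 8, against 6.75%. Bases farther upstream than 250, and *Egr1* and *Ier2*, were not searched, so these genes may hold such sites outside the windows. The windows were rich in G and C, at 58.4% in *Fos* to 80.0% in *Nr4a2*, against a median of 52.4% over all promoters, so a share of promoters of all compositions is no matched standard for motifs that contain CG. These are matches of letters only, and binding was not measured.

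Across the comparison, the *Snd1* KO and control clones overlapped for each of the 10 genes. Called genes needed an adjusted p under 0.05 together with a 2-fold difference or more, and 0 of the 10 were called, against 0.00561% of all genes tested. At an unadjusted p under 0.05 the count was also 0 of 10, against 7.96% of all genes. Complete separation of the 3 *Snd1* KO from the 3 control clones was found in 0 of 10, against 13.7% of all genes, 9.69% with *Snd1* KO higher and 4.03% with *Snd1* KO lower. The median log2 fold change of the 10 genes was −0.20, against 0.04 over all genes, with 4 genes above and 6 below 0. A failure to pass the threshold at this spread does not show that the groups were equal.

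**Figure D1:**
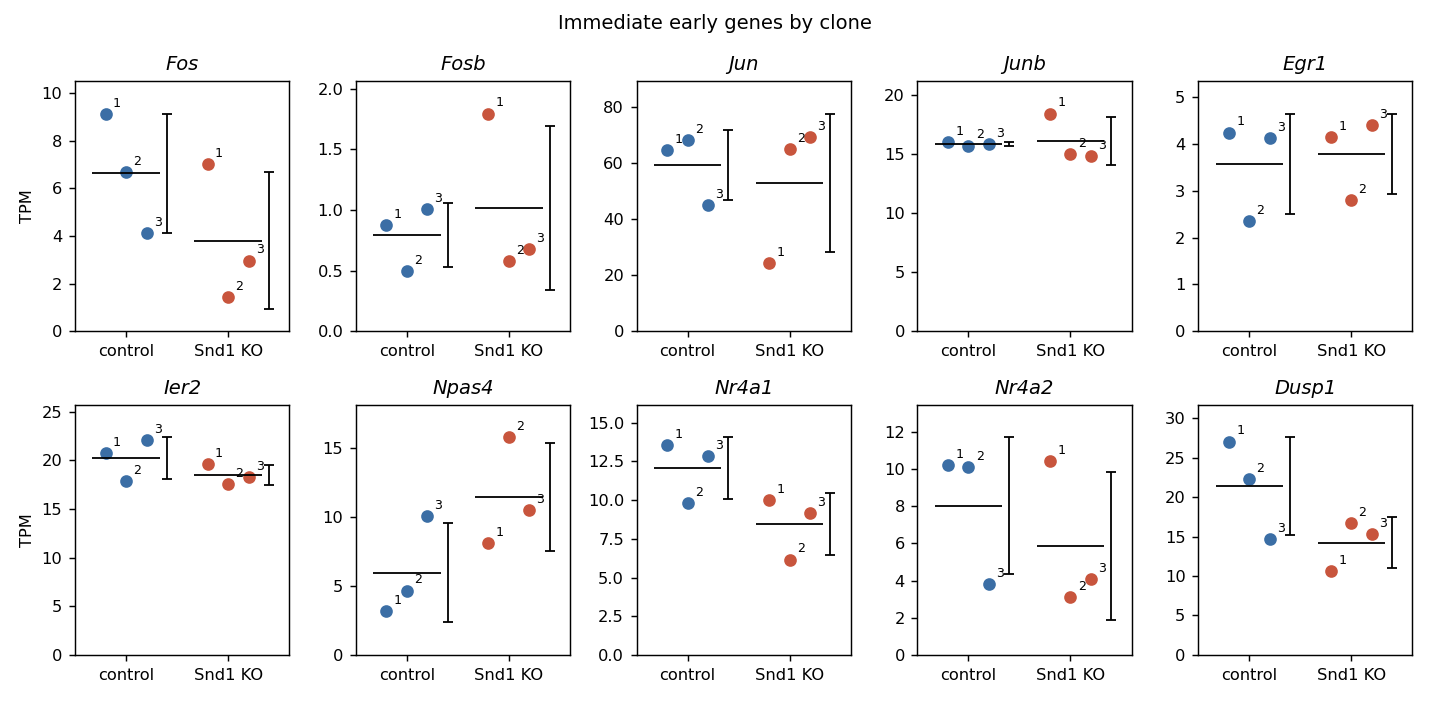
TPM of each immediate early gene in every clone (1 panel per gene, points labelled by clone number, lines at the mean of the 3 control and the 3 *Snd1* KO clones, error bars 1 SD either side of it, y axis from 0). *Fos*, *Nr4a2* and *Npas4* vary several-fold within a group, while *Junb* and *Ier2* lie close together in all 6 clones.

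The AP-1 factors are dimers of a FOS and a JUN protein that bind the AP-1 site. *Fos* (ENSMUSG00000021250, chromosome 12, 85473890 to 85477273, plus strand) was 9.11, 6.69 and 4.12 TPM in control and 7.01, 1.43 and 2.96 TPM in *Snd1* KO. The mean was 6.64 ± 2.497 (SD, n = 3) in control and 3.80 ± 2.88 (SD, n = 3) in *Snd1* KO, 57.2% of control, with a log2 fold change of −0.79 (SE 0.47, limma adjusted p = 0.681). *Snd1* KO 1 lay above controls 2 and 3, so the groups overlapped, whereas *Snd1* KO 2 and 3 lay below every control clone. The lowest value rested on 31 reads, a counting error of 17.96%, against a coefficient of variation between clones of 37.6% in control and 75.9% in *Snd1* KO.

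*Fosb*, a paralog of *Fos* (ENSMUSG00000003545, chromosome 7, 19302696 to 19310051, minus strand), was the lowest of the 10 genes per exonic base and had 0.877, 0.498 and 1.01 TPM in control and 1.79, 0.580 and 0.680 TPM in *Snd1* KO. The highest clone was *Snd1* KO 1 and the lowest was control 2, and the log2 fold change was 0.13 (SE 0.31, limma adjusted p = 0.930). Per exonic base, *Fos* exceeded *Fosb* by a ratio of 5.26, 6.81 and 2.07 in control and 1.98, 1.25 and 2.21 in *Snd1* KO clones. The ratio in control clones 1 and 2 was above that of every other clone, but control 3 lay among the *Snd1* KO clones, and an exact two-sided permutation test of the ratio gave p = 0.2, the smallest p for 3 against 3 being 0.1.

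*Jun* (ENSMUSG00000052684, chromosome 4, 95049034 to 95052222, minus strand) has a single exon and encodes a main partner of FOS. Its values were 64.5, 68.1 and 44.9 TPM in control and 24.4, 64.8 and 69.2 TPM in *Snd1* KO. *Snd1* KO 1 was the lowest clone and *Snd1* KO 3 the highest, so that the log2 fold change of −0.27 (SE 0.40, limma adjusted p = 0.876) rested on 1 clone, and without *Snd1* KO 1 it was 0.20. The antisense gene *Junos* shares 232 bases of its exon, and at most 1.11 TPM of *Junos* was measured.

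*Junb* (ENSMUSG00000052837, chromosome 8, 84974484 to 84978718, minus strand), a weaker activator that can oppose JUN, was 16.0, 15.7 and 15.9 TPM in control and 18.4, 15.0 and 14.8 TPM in *Snd1* KO. The SD over the 3 controls was 0.135 TPM, a coefficient of variation of 0.851% that is below the counting error of 7.62% in the clone with fewest reads. The log2 fold change of 0.01 (SE 0.13, limma adjusted p = 0.989) changed sign under several settings. The *Jun* to *Junb* ratio per exonic base was 4.03, 4.33 and 2.82 in control and 1.32, 4.31 and 4.67 in *Snd1* KO clones, low in *Snd1* KO 1 alone. *Prdx2* runs on the opposite strand over 173 exonic bases of *Junb*. Whether strand was used in counting is not given in the sources used here, so reads of both genes may be shared there.

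*Egr1*, a zinc finger factor induced through SRF, and *Ier2*, an early gene of less defined function, had similar means in both groups. *Egr1* (ENSMUSG00000038418, chromosome 18, 34859823 to 34864984, plus strand) was 4.25, 2.35 and 4.14 TPM in control and 4.15, 2.81 and 4.42 TPM in *Snd1* KO, with clone 2 low in each group and a log2 fold change of 0.08 (SE 0.26, limma adjusted p = 0.953). *Ier2* (ENSMUSG00000053560, chromosome 8, 84661331 to 84662852, minus strand) was 20.8, 17.9 and 22.0 TPM in control and 19.6, 17.6 and 18.2 TPM in *Snd1* KO. All 6 *Ier2* values lay within 1.25-fold, with a counting error of 8.67% against a coefficient of variation of 10.5% in control and 5.61% in *Snd1* KO, and the log2 fold change was −0.12 (SE 0.13, limma adjusted p = 0.812).

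*Npas4* encodes a factor that in neurons and β cells is induced by depolarization and calcium and limits the response to activity. It was the gene of the 10 with the largest positive difference. *Npas4* (ENSMUSG00000045903, chromosome 19, 4984355 to 4990316, minus strand) was 3.20, 4.66 and 10.05 TPM in control and 8.10, 15.8 and 10.5 TPM in *Snd1* KO. The mean was 5.97 ± 3.61 (SD, n = 3) in control and 11.4 ± 3.93 (SD, n = 3) in *Snd1* KO, 192% of control, with a log2 fold change of 0.91 (SE 0.40, limma unadjusted p = 0.0574, adjusted p = 0.607). Controls 1 and 2 lay below every *Snd1* KO clone, whereas control 3 lay above *Snd1* KO 1. Its lowest clone had 180 reads, a counting error of 7.45%, against a coefficient of variation between clones of 60.5% in control and 34.3% in *Snd1* KO.

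The NR4A genes encode nuclear receptors without a known natural ligand whose activity follows their expression. *Nr4a1* (ENSMUSG00000023034, chromosome 15, 101254269 to 101274795, plus strand) was 13.5, 9.83 and 12.9 TPM in control and 10.02, 6.16 and 9.16 TPM in *Snd1* KO, the mean in *Snd1* KO being 8.45 against 12.1 TPM. Only control 2 lay within the range of the *Snd1* KO clones, and the log2 fold change was −0.48 (SE 0.22, limma unadjusted p = 0.0635, adjusted p = 0.607). *Nr4a2* (ENSMUSG00000026826, chromosome 2, 57106830 to 57124003, minus strand) was 10.2, 10.1 and 3.81 TPM in control and 10.5, 3.11 and 4.09 TPM in *Snd1* KO. Its clones fell into a high set, controls 1 and 2 with *Snd1* KO 1, and a low set, and the log2 fold change was −0.44 (SE 0.49, limma adjusted p = 0.821). The *Nr4a2* to *Nr4a1* ratio per exonic base was above 1 in that high set, at 1.43, 1.96 and 1.99, and below 1 in control 3 and *Snd1* KO 2 and 3, at 0.563, 0.959 and 0.850.

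*Dusp1* encodes a phosphatase that removes phosphate from MAP kinases, so it is induced by the signal it ends. *Dusp1* (ENSMUSG00000024190, chromosome 17, 26505590 to 26562128, minus strand) was 27.1, 22.3 and 14.7 TPM in control and 10.6, 16.7 and 15.4 TPM in *Snd1* KO. The mean was 21.4 ± 6.22 (SD, n = 3) in control and 14.2 ± 3.21 (SD, n = 3) in *Snd1* KO, 66.5% of control, with a log2 fold change of −0.54 (SE 0.26, limma unadjusted p = 0.0803, adjusted p = 0.609). Controls 1 and 2 were above every *Snd1* KO clone, and control 3 lay among them. Of its exonic bases, 11 lie over *Ergic1* on the other strand.

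**Figure D2:**
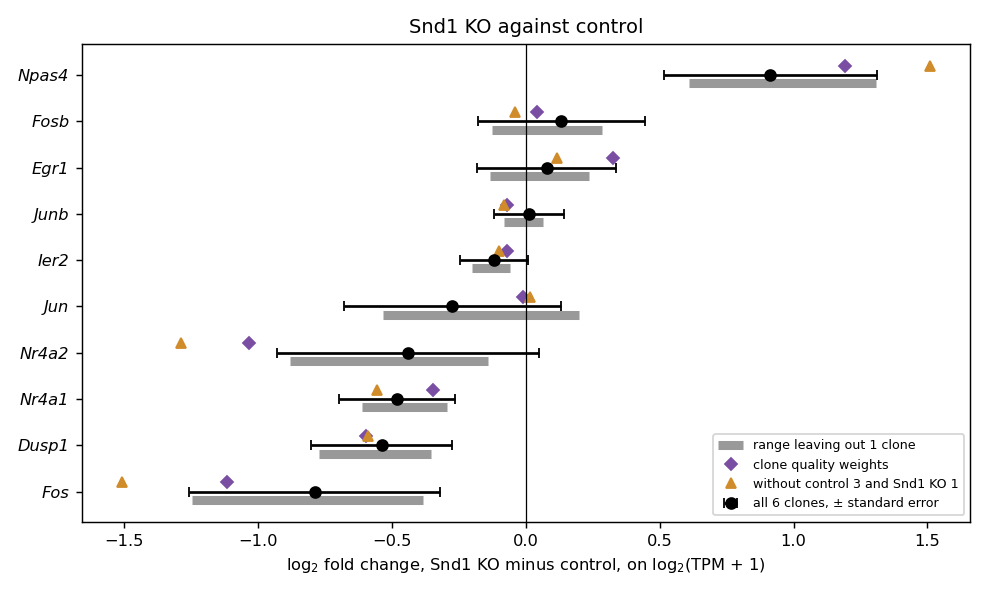
Log2 fold change of each immediate early gene, *Snd1* KO minus control on the log2(TPM + 1) scale, with the limma standard error as the bar. Grey bars span the values with 1 clone left out, diamonds use clone quality weights and triangles leave out control 3 and *Snd1* KO 1. *Npas4* is the highest at 0.91 and *Fos* the lowest at −0.79, and in both the triangle and the diamond lie farther from 0.

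The 10 genes differed in how steady they were. The SD of log2(TPM + 1) within groups was 0.742 for *Nr4a2*, 0.705 for *Fos*, 0.624 for *Jun* and 0.596 for *Npas4*, at or above the 84.5th percentile of all genes tested. For *Ier2* and *Junb* it was 0.118, at the 12.5th percentile and about the size of their counting error, and the remaining genes lay between 0.284 and 0.379. The median of the 10 genes was 0.367, against 0.267 over all genes. The highest clone exceeded the lowest 6.38-fold for *Fos*, 4.94-fold for *Npas4* and 1.24-fold for *Junb*.

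**Figure D3:**
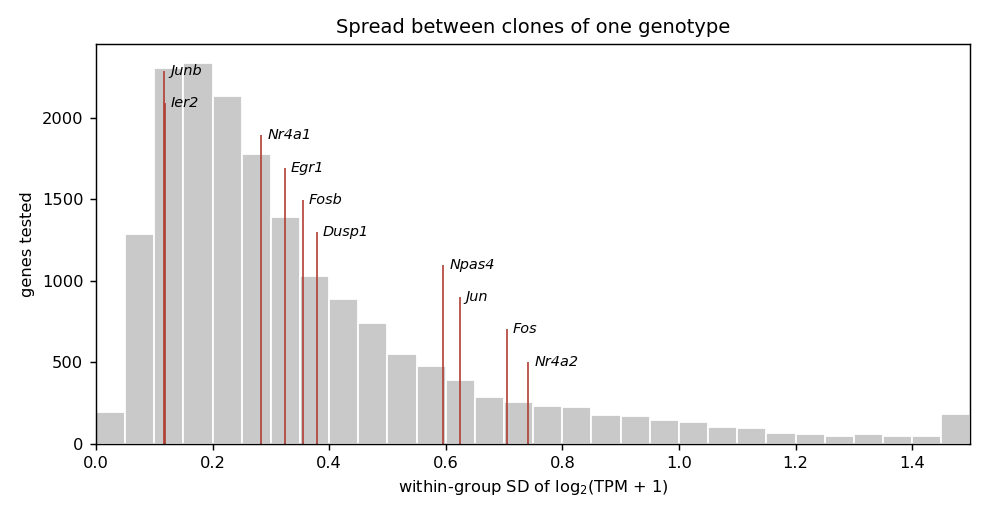
Number of genes tested by the SD of log2(TPM + 1) within groups (x axis), with the 10 immediate early genes marked. The last bar holds all larger values. *Fos*, *Nr4a2*, *Jun* and *Npas4* lie in the upper part of the distribution, and *Junb* and *Ier2* in the lower part.

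Per exonic base, mean levels over the 6 clones ran from 35.0 ± 11.1 for *Jun* and 34.6 ± 11.3 for *Dusp1*, through 14.8 ± 7.72 for *Nr4a2*, 13.0 ± 6.72 for *Npas4*, 12.1 ± 1.12 for *Ier2*, 11.5 ± 2.98 for *Nr4a1* and 10.02 ± 0.839 for *Junb*, to 6.07 ± 3.33 for *Fos*, 3.87 ± 0.926 for *Egr1* and 2.08 ± 1.10 for *Fosb* (SD, n = 6). No neighbours in that order had ranges that did not overlap, and *Egr1* above *Fosb* was the only neighbouring order present in 6 of 6 clones.

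For some genes the high clones came from both groups. Control 1, control 2 and *Snd1* KO 1 were the 3 highest clones for *Fos* and *Nr4a2*, 2 of the 10 genes, against 14.9% of all genes tested, and the 3 lowest for *Npas4*, 1 of 10, against 9.89%. Both counts are near the share of all genes, so nothing about the 10 genes is read from them, and the order within these sets of clones differed between *Fos* and *Nr4a2*. The split was noticed in the values of the clones and is given as a description, with no test. *Fos* and *Nr4a2* differed by 0.277 (root mean square of the centred log2 values over 6 clones), against 1.33 between *Fos* and *Npas4*, the farthest pair, and 0.119 between *Junb* and *Ier2*, the closest. Of the centred values, 9 of 10 genes were above their own mean in control 1, 4 in control 2, 5 in control 3, 8 in *Snd1* KO 1, 2 in *Snd1* KO 2 and 3 in *Snd1* KO 3.

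**Figure D4:**
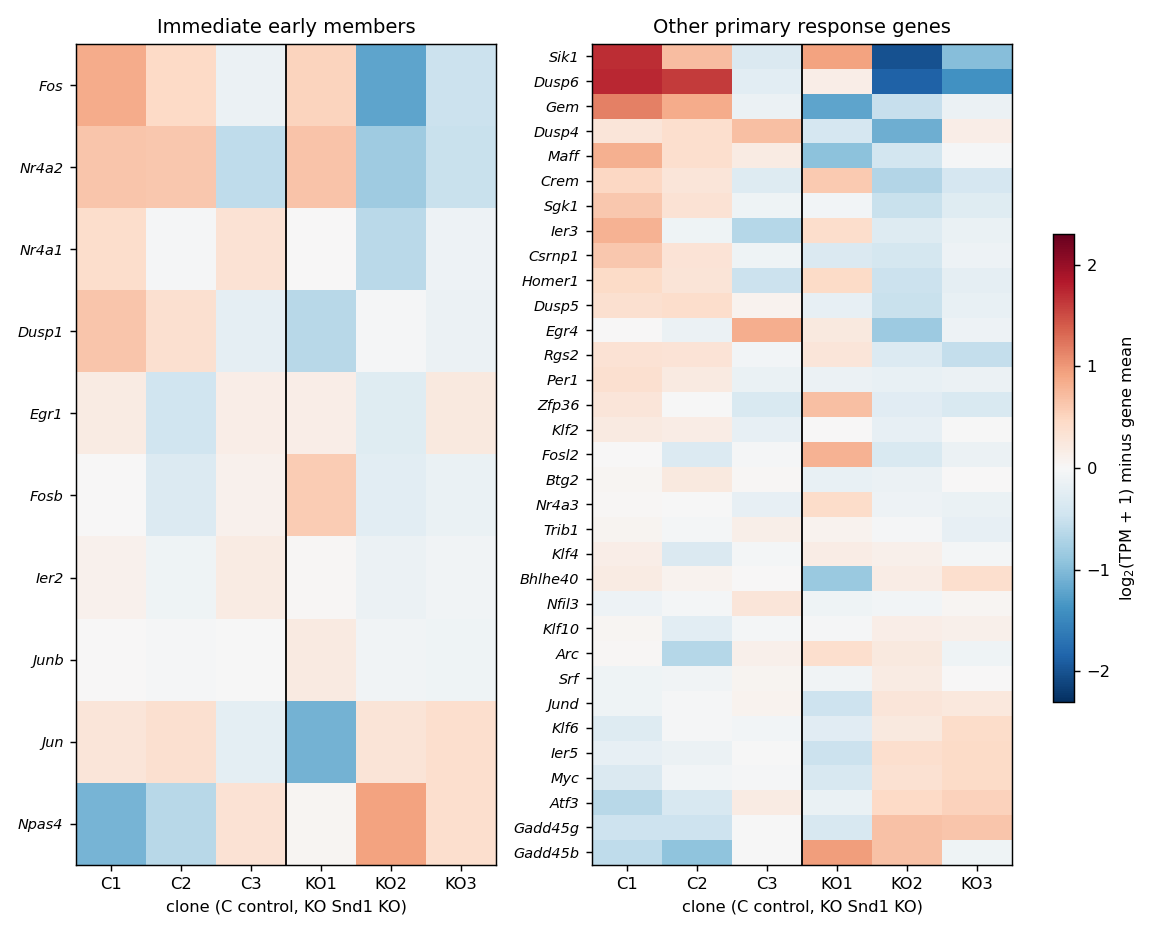
Log2(TPM + 1) minus the gene's mean over the 6 clones for the 10 immediate early genes (left) and 33 other primary response genes (right), red above and blue below the mean. Control 1, control 2 and *Snd1* KO 1 are the 3 highest clones for *Fos* and *Nr4a2*, a split also present in 11 of the 33 other genes shown and in 14.9% of all genes.

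Giving the clones unequal weight altered the calls. With clone quality weights estimated from all genes, which gave control 3 a weight of 0.279 and *Snd1* KO 1 0.286 against 3.91 for *Snd1* KO 3, *Fos* (log2 fold change −1.12, limma adjusted p = 0.0416), *Npas4* (1.19, adjusted p = 0.0290) and *Nr4a2* (−1.03, adjusted p = 0.0426) were called, 3 of 10 against 5.02% of all genes, and *Dusp1* (−0.60, adjusted p = 0.0461) passed on p but not on size. The unweighted fit called 0. With control 3 and *Snd1* KO 1 left out, a choice made after the values were seen, *Fos* (log2 fold change −1.51, limma adjusted p = 0.0962), *Npas4* (1.51, adjusted p = 0.0817), *Nr4a2* (−1.29, adjusted p = 0.0582) and *Dusp1* (−0.59, adjusted p = 0.0988) had an unadjusted p under 0.05, 4 of 10 against 26.7% of all genes, and 0 of 10 were called, against 0.746%. Both settings also raise the count among all genes, and the 2 clones were set apart by the same data.

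In other primary response genes, a hand-written list of 39 of which 33 were tested, 1 gene was higher and 5 lower at an unadjusted p under 0.05, against 5.63% higher and 2.33% lower over all genes, and 0 were called. With clone quality weights 17 of the 33 had an unadjusted p under 0.05, 6 higher and 11 lower, against 32.6% of all genes, and *Dusp6*, *Gem* and *Sik1*, all lower, and *Gadd45g*, higher, were called, 4 of 33 against 5.02%. Without control 3 and *Snd1* KO 1 the count was 19 of 33, 7 higher and 12 lower, against 26.7%, and *Dusp6* and *Gadd45g* were called, 2 of 33 against 0.746%. *Gadd45g*, a stress gene named here after its values were seen, was 38.6, 38.6 and 53.5 TPM in control and 41.5, 86.9 and 84.2 TPM in *Snd1* KO. In the unweighted fit the median log2 fold change was −0.09, against 0.04 over all genes. *Gem*, a small GTPase that restrains calcium channels, was 47.2, 38.1 and 18.8 TPM in control and 8.33, 14.1 and 18.6 TPM in *Snd1* KO, a log2 fold change of −1.25 (limma adjusted p = 0.571), and −1.17 with clone quality weights (limma adjusted p = 0.0289). The phosphatases *Dusp4* and *Dusp5*, of the *Dusp1* family, did not overlap between groups. *Dusp5* was 185, 191 and 152 TPM in control and 126, 100.4 and 127 TPM in *Snd1* KO (−0.58, limma adjusted p = 0.556). *Dusp4* was 165, 178 and 219 TPM in control and 104, 62.2 and 152 TPM in *Snd1* KO (−0.90, limma adjusted p = 0.586), and its difference was −0.41 with clone quality weights (limma adjusted p = 0.306). The factor *Maff* was 21.4, 15.7 and 13.6 TPM in control and 5.60, 8.53 and 11.6 TPM in *Snd1* KO (−0.93, limma adjusted p = 0.568). In all, 6 of the 33 genes were below the controls in every *Snd1* KO clone, against 4.03% of all genes, the other two being *Btg2* and *Csrnp1*, named here after their values were seen. *Dusp6*, at 22.4, 20.6 and 4.97 TPM in control and 6.79, 0.948 and 1.69 TPM in *Snd1* KO, had the largest difference in this list (−2.07, limma adjusted p = 0.585), which was −2.92 with clone quality weights (limma adjusted p = 0.0179) and −3.30 without control 3 and *Snd1* KO 1 (limma adjusted p = 0.0459). The 1 higher gene was *Gadd45b*, a stress gene named here after its value was seen (1.01, limma adjusted p = 0.585). *Sik1*, a kinase induced by CREB that restrains its coactivators, followed the order of *Fos*, at 44.6, 22.0 and 10.2 TPM in control and 25.7, 2.497 and 6.11 TPM in *Snd1* KO (−1.38, limma adjusted p = 0.677), and its difference was −2.05 with clone quality weights (limma adjusted p = 0.0386) and −2.70 without both clones (limma adjusted p = 0.0855).

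Of 39 genes upstream of the 10, the CREB, SRF and MEF2 factors, their coactivators and kinases, all tested, 4 were higher and 1 lower at an unadjusted p under 0.05, against 5.63% higher and 2.33% lower over all genes. Complete separation was found in 4 of 39 on the higher side, near the 9.69% of all genes, and in 1 of 39 on the lower side, against 4.03%. With clone quality weights 14 of 39 had an unadjusted p under 0.05, against 32.6%, and without control 3 and *Snd1* KO 1 15 of 39 did, against 26.7%, with 0 called in either. The 4 higher at an unadjusted p under 0.05 in the unweighted fit were *Creb1*, *Atf1*, *Prkar2b* and *Prkar2a*. *Prkar2a*, whose groups overlapped, was named after its value was seen (0.53, limma adjusted p = 0.591). *Creb1* was 15.0, 15.2 and 12.1 TPM in control and 18.2, 18.2 and 19.2 TPM in *Snd1* KO, a log2 fold change of 0.38 (SE 0.13, limma adjusted p = 0.589), and every *Snd1* KO clone was above every control. The CREB relative *Atf1* (0.28, limma adjusted p = 0.586), the coactivator *Crebbp* (0.23, limma adjusted p = 0.646) and the regulatory kinase subunit *Prkar2b* (0.29, limma adjusted p = 0.594) were likewise higher in each *Snd1* KO clone. *Mef2d* was lower in every *Snd1* KO clone (−0.45, limma adjusted p = 0.577). The widest ranges of log2(TPM + 1) over clones in this list were those of *Crem* (−0.30, limma adjusted p = 0.852) and *Prkar1a* (−0.51, limma adjusted p = 0.695). Of 18 genes that bring glucose, calcium and hormone signals to the cell, 16 were tested, 2 higher and 2 lower at an unadjusted p under 0.05, against the same 5.63% and 2.33% of all genes. *Glp1r*, the GLP-1 receptor, was 1068, 964 and 494 TPM in control and 432, 384 and 414 TPM in *Snd1* KO (−0.96, limma adjusted p = 0.568). It was called with clone quality weights (−1.23, limma adjusted p = 0.0183) and without control 3 and *Snd1* KO 1 (−1.35, limma adjusted p = 0.0468). In the latter setting it was 1 of 16 called, against 0.746%. With the weights *Adcy3* (1.11, limma adjusted p = 0.0238) and *Adcy5* (1.76, limma adjusted p = 0.0495) were called as well, 3 of 16 against 5.02%. *Adcy5* was 0.473, 0.210 and 1.27 TPM in control and 0.470, 0.746 and 4.93 TPM in *Snd1* KO, so its difference rested on *Snd1* KO 3, the clone of the highest weight. Without that clone it was 0.008, and without control 3 and *Snd1* KO 1 it was not called (1.27, limma adjusted p = 0.304). *Adcy3*, an adenylyl cyclase, was higher in every *Snd1* KO clone, with values of at most 2.23 TPM (1.06, limma adjusted p = 0.568). At these low levels the log2 fold change depends on the pseudocount of 1, and it was 2.43 with a pseudocount of 0.1 and 3.01 by voom on recovered reads. Also higher in each *Snd1* KO clone was *Adcy6* (0.40, limma adjusted p = 0.597). The glucose transporter *Slc2a2* (−1.27, limma adjusted p = 0.607) and *Adcy5* (0.64, limma adjusted p = 0.771) had the widest ranges of log2(TPM + 1) over clones.

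Genes induced later in the response, 8 tested of 11, had 0 higher and 2 lower at an unadjusted p under 0.05, against 5.63% and 2.33% of all genes, and a median log2 fold change of −0.31. Of the 8, 7 were below 0, against 42.7% of all genes. The count at an unadjusted p under 0.05 was 4 of 8 with clone quality weights, against 32.6%, and 4 of 8 without control 3 and *Snd1* KO 1, against 26.7%. *Vgf* and *Plat* were called with the weights, 2 of 8 against 5.02%, and 0 without both clones. *Nab2*, a corepressor of EGR1, was 17.6, 16.1 and 14.3 TPM in control and 8.63, 10.2 and 11.7 TPM in *Snd1* KO (−0.61, SE 0.16, limma adjusted p = 0.568), with no overlap between groups. *Vgf*, a secreted peptide precursor, was 235, 228 and 229 TPM in control and 230, 51.8 and 82.9 TPM in *Snd1* KO (−1.20, limma adjusted p = 0.607, and −1.47 with clone quality weights, limma adjusted p = 0.0234), so *Snd1* KO 1 was level with the controls. *Nptx2* was 15.2, 7.39 and 13.9 TPM in control and 158, 8.88 and 6.21 TPM in *Snd1* KO (0.83, limma adjusted p = 0.861), so the *Snd1* KO mean rested on clone 1. Heat shock genes are induced by other signals. Of 10, 0 were higher and 1 lower at an unadjusted p under 0.05, against 5.63% and 2.33% of all genes. The 1 was the cochaperone *Bag3* (−0.64, limma adjusted p = 0.589). It was lower in every *Snd1* KO clone, 1 of 10 against 4.03% of all genes. *Bag3* passed on p but not on size with clone quality weights (−0.90, limma adjusted p = 0.0206). The same held without control 3 and *Snd1* KO 1 (−0.94, limma adjusted p = 0.0468). *Hspa1b* (0.44, limma adjusted p = 0.754) and *Hsph1* (0.48, limma adjusted p = 0.622) had the widest ranges of log2(TPM + 1) over clones. With clone quality weights *Hsph1* also passed on p but not on size (0.91, limma adjusted p = 0.0258). The summed level of all 10 heat shock genes ran from 1962 to 2159 TPM among controls and from 1907 to 2148 TPM among *Snd1* KO clones.

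The genes outside the list whose profile over the 6 clones was most like the mean of the 10 were *Capn1* and *Trak1* (root mean square difference 0.026 log2 each), *Fem1b* (0.041), *Rnf4* (0.043), *Rrp7a* (0.045) and *Xpo5* (0.047), out of 11360 genes whose mean reached 5 TPM. A mean over 10 genes with different clone orders is nearly flat, with control 1 at 0.20 and *Snd1* KO 2 at −0.22. For single genes, chosen after their values were seen, the most similar was *Plat* for *Fos* (0.125), *Slc39a11* for *Nr4a2* (0.091) and *Tmem151b* for *Jun* (0.077).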

How the data were processed

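RNA of 3 control and 3 *Snd1* KO clones was sequenced as paired ends. The authors' processing notes name FastQC, Trimmomatic, HISAT2, HTSeq and DESeq2 with the build mm10, without versions, and the deposited values are TPM per Ensembl gene, on 1 scale in each clone. The annotation of the authors' counting is not given in the sources used here. 92 ERCC rows were left out. Of 53808 identifiers, 53706 were matched to GENCODE M21 (GRCm38) in its primary assembly annotation. This file replaced the annotation of the chromosomes alone after results had been seen, because it holds genes on unplaced scaffolds, and it left the comparison of TPM as it was.

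TPM multiplied by the summed exon length gave whole reads, within 0.02, for 99.1 to 99.3% of the values above 0 in a clone, after a search for the length of 1330 genes. Recovered depths are above those the study's methods state, and whether both mates were counted is not given, so counting errors, which cover counting only, may be larger. Levels compared between genes were recomputed with each exonic base counted once.

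log2(TPM + 1) was compared for the 17823 genes whose mean reached 0.5 TPM by limma 3.58.1 (R 4.3.3; lmFit and eBayes, trend on), and p-values were adjusted over all of them by the method of Benjamini and Hochberg. Genes were called at an adjusted p under 0.05 and at least 2-fold. Exact permutation tests were two-sided. A simulated table in which 200 genes differed, with the same small spread in every gene, served to test the fit. No criterion was set for a simulation at the measured spread. Python 3.11.15, numpy 2.4.6, pandas 2.3.3, scipy 1.17.1 and matplotlib 3.10.9 served for the rest.

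The members and lists were chosen with earlier results of these data known. Named from each other list were up to 4 genes per direction whose groups did not overlap, by size of change. The 2 with the widest range of log2(TPM + 1) over clones were also named. There were 14 settings planned as alternatives, and 3 added after seeing the data, namely voom on recovered reads, each exonic base counted once, and leaving out control 3 with *Snd1* KO 1.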

Additional observations from a re-analysis of the deposited data

How the results depend on the processing

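The median log2 fold change of the 10 genes stayed below 0 in every setting, from −0.36 when the mean had to reach 5 TPM, which drops *Fosb* and *Egr1*, to −0.071 with clone quality weights, and from −0.25 to −0.11 with each clone left out in turn. Genes called over all genes were 1 in the comparison reported, 895 with clone quality weights, 133 without control 3 and *Snd1* KO 1, 0 with no filter, no trend and voom on recovered reads, and 0 to 1 with a clone left out. Of the 10 genes, 4 had an unadjusted p under 0.05 with clone quality weights (32.6% of all genes). The count was also 4 without control 3 and *Snd1* KO 1 (26.7%). It was 1 with median ratio scaling (8.29%) and 1 with quantile normalization (8.15%). With voom on recovered reads it was 2, *Npas4* and *Dusp1* (8.74%). With a clone left out it was 0 to 2. These were *Fos* and *Nr4a1* without *Snd1* KO 1 (14.3% of all genes), *Npas4* and *Dusp1* without control 3 (13.9%), and *Nr4a1* without control 2 (4.26%). The cause was not tested.

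With the replicate block the number of genes called was 0. Of the 10 genes, 2, *Npas4* and *Nr4a1*, had an unadjusted p under 0.05, against 6.7% of all genes. Equal clone numbers do not pair independent clones: the deviations of same-numbered clones correlated at 0.0507, −0.122 and −0.0736.

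Small log2 fold changes changed sign. *Junb* was −0.070 with clone quality weights, −0.082 without both clones, −0.028 with median ratio scaling and −0.029 with quantile normalization. *Fosb* was −0.041 without both clones and −0.038 with quantile normalization, *Jun* was 0.015 without both clones, and *Egr1* was −0.064 with quantile normalization. *Nptx2* was −0.32 with clone quality weights and −0.47 without both clones. With a clone left out in turn, *Junb* ranged from −0.083 to 0.065, *Fosb* from −0.13 to 0.28, *Jun* from −0.54 to 0.20, *Egr1* from −0.13 to 0.24, and *Nptx2* from −0.58 to 1.65. *Fos*, *Ier2*, *Npas4*, *Nr4a1*, *Nr4a2* and *Dusp1* kept their direction in all settings run, but not their size. Leaving out *Snd1* KO 2 gave −0.14 for *Nr4a2*, −0.38 for *Fos* and −0.29 for *Nr4a1*, and leaving out *Snd1* KO 1 gave −0.88 for *Nr4a2* and −1.25 for *Fos*. Over all clones left out in turn, *Npas4* ranged from 0.61 to 1.31, *Dusp1* from −0.77 to −0.35 and *Ier2* from −0.20 to −0.059. Among the other genes, *Sik1* ranged from −2.19 to −0.72, *Prkar1a* from −0.87 to −0.33, *Crem* from −0.68 to −0.043 and *Hspa1b* from 0.13 to 0.71. *Dusp4* ranged from −1.20 to −0.56, *Vgf* from −1.80 to −0.73 and *Hsph1* from 0.29 to 0.69. Counting error in the clone with fewest reads was 17.96% for *Fos* and 12.7% for *Fosb*, below the variation between clones in both groups.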
